A study of Homo sapiens with 12 samples.

Results

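The genes described here are the solute carriers that were detected in H1 human embryonic stem cells after knockdown of OCT4. They were chosen by name and by detection. A member is a gene whose array symbol starts with SLC and a number, with a probe that had a detection p-value under 0.01 on at least 3 of the 12 arrays. The probe with the highest mean deposited intensity stood for each gene. The array carried 550 such probes for 377 SLC genes, of which 245 probes passed, and 202 genes became members among the 10506 genes tested.

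H1 is an established line of human embryonic stem cells. Cells were transfected with Fugene with an shRNA against OCT4 (knockdown) or with an shRNA against luciferase (control), and were harvested 2 days or 3 days later, with 3 arrays in each of the 4 groups. OCT4 is the product of POU5F1 and a transcription factor that keeps stem cells pluripotent, and the study set out to find its mRNA targets. A single OCT4 shRNA is named. Nothing in the labels ties replicates to separate cultures, so every p-value reflects the spread among these arrays, which could be technical.

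Solute carriers are membrane proteins that move small molecules and ions across the plasma membrane or the membranes of organelles. Some let a substrate flow down its gradient, while others couple it to sodium, protons or a counter-substrate. Families are numbered by sequence, and most share a kind of substrate. In pluripotent stem cells, glucose and amino acid carriers supply glycolysis, protein synthesis and one-carbon metabolism, and zinc and iron carriers set the supply of metal cofactors. The classes used below follow the family, with exceptions where the substrate of a gene is known to differ.

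Each array detected 13343 to 14969 of 48803 probes, with median intensities of 69.6 to 71.8, and 3 arrays per group limit the precision. POU5F1 itself fell by 2.23 on the log2 scale in knockdown cells at day 2 and fell by 2.96 at day 3, without overlap between groups. All 7 stem cell markers on the array were detected on every array, and their log2 intensities summed to 77.2 to 79.4 in knockdown arrays at day 3, against 87.6 to 88.2 in control arrays. Knockdown and then control sums at day 3 were 53.3 to 56.2 against 34.4 to 38.9 for 6 endoderm markers and 51.9 to 53.3 against 35.9 to 40.9 for 6 mesoderm markers. They were, in the same order, 48.3 to 51.2 against 37.8 to 39.8 for 7 trophoblast and amnion markers, of which CGA and CGB3 were undetected in every group, and 50.3 to 53.1 against 42.0 to 43.7 for 6 fibroblast markers, of which DCN was undetected in every group. Of 3 blood markers none was detected on all 3 arrays of any group. Single markers went against their list's sum at day 3: TBXT of the mesoderm list, undetected in knockdown arrays, was at least 1.57-fold lower (adjusted p = 0.0118), and GABRP of the trophoblast and amnion list, detected on 1 of 3 knockdown arrays, differed by -1.03 (adjusted p = 0.00744). The summed levels of these lists moved with the knockdown, and their part in the carrier differences was not tested. In bulk RNA, fewer cells of a type and less RNA per cell cannot be told apart. A principal component analysis over the 202 members placed 49.5% of the variance on a first component, with all knockdown arrays on 1 side and all control arrays on the other. Among the 202 are 5 members detected on knockdown arrays only, so this placement describes the list and supports nothing further. A second component with 19.98% placed the replicate 3 array of each of the 4 groups above all other arrays. Without these arrays the fit called 15 members at day 2 and 54 at day 3.

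Of the 202 members, 171 were detected on all 12 arrays and 31 on 3 to 11. At the edge of the rule, 7 members were detected on exactly 3 arrays, with mean intensities of 95.9 to 152, and 6 SLC genes detected on 2 arrays were left out, with 86.1 to 101. Detection on knockdown arrays only was found for 5 members, SLC40A1, SLC9A9, SLC1A1, SLC9B2 and SLC10A4, and on control arrays only for 0. These 5 became members through the knockdown arrays, so counts over the members describe the list and support nothing further. The p-values given below for these 5 likewise describe the values that made them members. SLC16A1 and SLC16A3, well-known lactate carriers, were not analysed here.

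At day 2, 14 members were higher and 8 lower in knockdown than in control cells at an adjusted p under 0.05. The 14 include SLC40A1 and SLC9A9, which no array of either group detected at that day. That is 10.9% of members, where 8.66% of all tested genes were called, 5.69% higher and 2.97% lower. At day 3 the call was made for 31 higher and 29 lower members, 29.7% of them, where the background was 29.6%, 14.3% higher and 15.3% lower. The shares of members called lay near the background on both days, so the counts are no result about carriers. The day 3 split depended on the scaling, with 37 higher and 22 lower members in the authors' own log2 values. The median change over members was -0.07 at day 2 and -0.01 at day 3 on the log2 scale, and -0.04 and -0.07 over all genes. Changes of at least 2-fold in the fit were found for 3 higher and 2 lower members at day 2, and for 10 higher and 6 lower at day 3. The share of all tested genes that reached 2-fold is not given, so these counts are no result about carriers. At day 3 they include members undetected in control arrays, such as SLC40A1, SLC9A9 and SLC1A1, whose fitted folds are not measured.

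Every member called at day 2 was called in the same direction at day 3, 14 higher and 8 lower, while 17 higher and 21 lower members were called at day 3 alone. The share of all tested genes that did so is not given, so these counts are no result about carriers. The 14 include SLC40A1 and SLC9A9, whose day 2 calls are not read as a change. The day 2 count depended on single arrays. It was 13 without knockdown replicate 1 or knockdown replicate 3 of that day, and 14 without control replicate 1 or control replicate 3. At day 3 the count lay between 45 and 64 when 1 array was left out. Without replicate 3 of every group, 10 day 2 calls were lost, those of SLC1A3, SLC2A3, SLC4A11, SLC9A9, SLC10A4, SLC12A2, SLC25A37, SLC25A42, SLC35A5 and SLC66A2. At day 3, 13 calls were lost in that fit, those of SLC6A9, SLC6A18, SLC10A4, SLC18B1, SLC24A1, SLC25A37, SLC30A7, SLC35B2, SLC38A6, SLC39A10, SLC39A14, SLC44A2 and SLC71A1. Non-overlapping groups of arrays were found for 53 members at day 2 (26.2%, background 24.1%) and for 84 at day 3 (41.6%, background 43.0%).

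**Figure D1:**
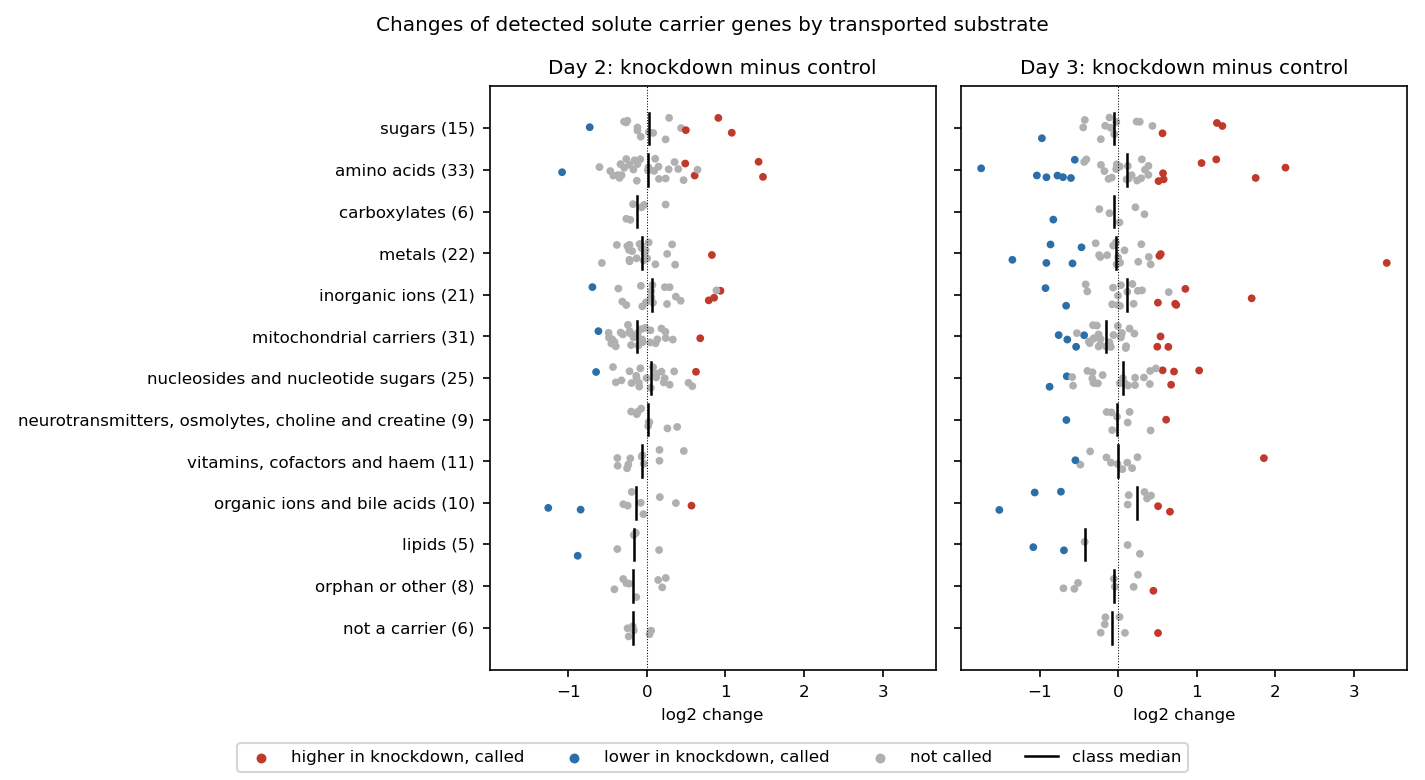
Log2 change (knockdown minus control, horizontal axis) of each of the 202 members, by substrate class with its number of members, at day 2 (left) and day 3 (right). Red and blue points passed an adjusted p of 0.05, grey points did not, and black bars are class medians. At day 3 the medians lie between -0.43 (lipids) and 0.24 (organic ions and bile acids), and single carriers between -1.74 and 3.42.

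Metals were carried by 22 members, with 1 higher and 0 lower at day 2, and 3 higher and 5 lower at day 3. The class median at day 3 was -0.02. The widest change of any member was in SLC40A1, ferroportin, the iron exporter of the plasma membrane. Its normalised log2 intensities at day 3 were 8.14, 8.45 and 8.24 in knockdown arrays, against 5.02, 4.80 and 4.76 in control arrays. At day 2 they were 5.63, 5.57 and 5.71 in knockdown arrays, against 4.95, 4.82 and 4.66 in control arrays. Detection was reached on the 3 knockdown arrays of day 3 alone, and the groups did not overlap on either day. SLC40A1 rose at day 3 by at least 5.08-fold (fitted log2 change 3.42 ± 0.14 SE, n = 3 per group, adjusted p = 1.37e-09). The same knockdown arrays made SLC40A1 a member, so its p-value is a description and no further support. At day 2 neither group's arrays detected SLC40A1, so the call there compares values not above background and is not read as a change.

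The zinc exporters moved in both directions. SLC30A3, which loads zinc into synaptic vesicles, had 6.14, 5.87 and 6.20 in knockdown arrays at day 3, against 7.10, 7.45 and 7.69 in control arrays, and fell by 1.35 (SE 0.17, adjusted p = 6.13e-05). SLC30A1, the zinc exporter of the plasma membrane, had 7.32, 7.17 and 6.81 in knockdown arrays, against 8.50, 7.76 and 7.78 in control arrays. Each knockdown array lay below each control array for both genes. SLC30A1 fell by 0.91 (SE 0.23, adjusted p = 0.00828), while its other detected probe gave -0.57 with an adjusted p of 0.0904. SLC30A7, which carries zinc into the Golgi, was 0.54 higher (SE 0.17, adjusted p = 0.0304).

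Zinc importers of the ZIP family were also split. SLC39A8 had 9.20, 9.09 and 8.90 in knockdown arrays at day 3, against 10.10, 9.56 and 10.11 in control arrays, and fell by 0.86 (SE 0.18, adjusted p = 0.00314). At day 2 its groups overlapped and the change was -0.03. SLC39A10 fell by 0.58 at day 3 (adjusted p = 0.0299), and SLC39A14, which also carries iron, fell by 0.47 (adjusted p = 0.0455). SLC39A6 rose by 0.52 (adjusted p = 0.0269), with 0.28 and an adjusted p of 0.371 in its other probe. SLC11A2, the proton-coupled importer of iron known as DMT1, differed by -0.02 with overlapping groups. When each of the 12 arrays was left out in turn, the day 3 call was lost in 7 fits for SLC39A14 (adjusted p up to 0.163), in 6 for SLC39A6 (up to 0.0767), and in 4 each for SLC39A10 (up to 0.102) and SLC30A7 (up to 0.126).

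**Figure D2:**
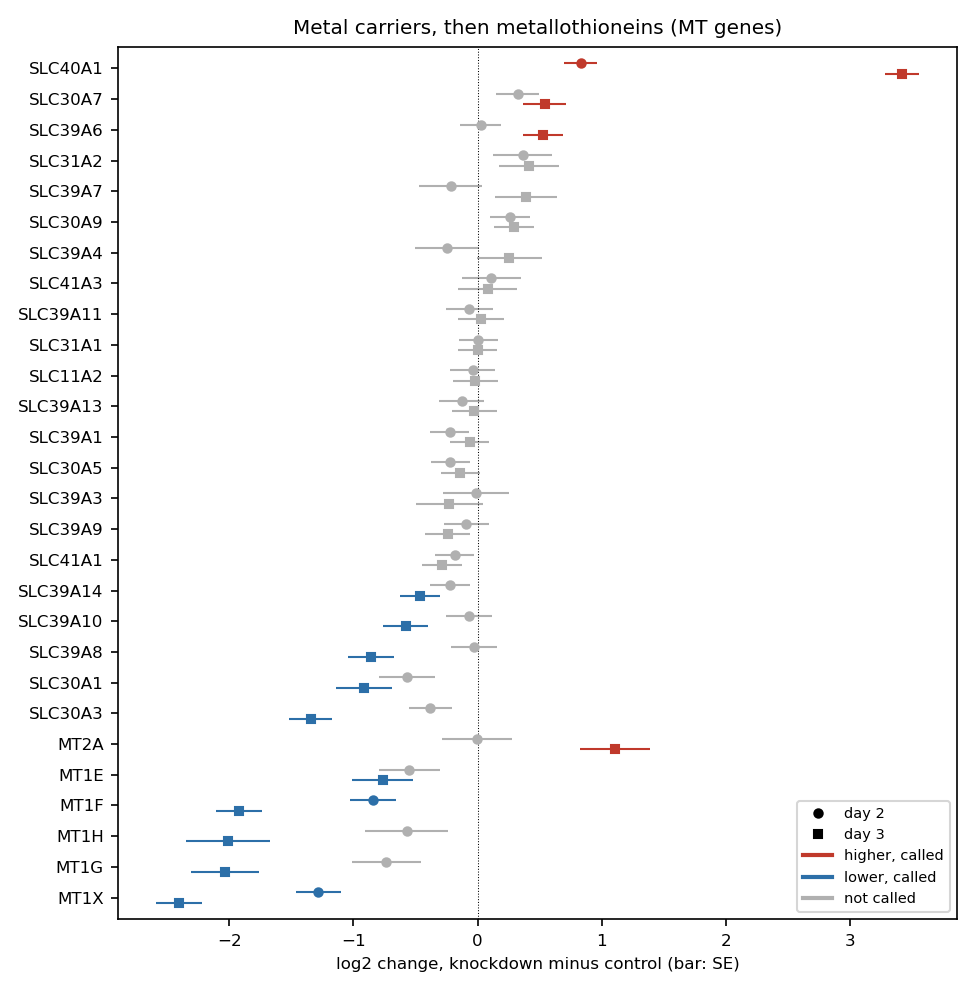
Log2 change (knockdown minus control, horizontal axis) with its SE at day 2 (circles) and day 3 (squares) for the 22 metal carriers in order of their day 3 change, and below them 6 metallothioneins. SLC40A1 stands alone at 3.42, while 5 of the 6 metallothioneins lie between -0.77 and -2.40 at day 3.

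Other genes of iron, zinc and copper handling were counted from a list of 24, of which 16 were measured. At day 2, 1 was higher and 3 were lower, and at day 3, 3 were higher and 6 lower. Of the 6 lower genes 5 were metallothioneins, small proteins that bind zinc and copper. MT1X had 10.37, 10.61 and 10.31 in knockdown arrays at day 3, against 13.15, 12.73 and 12.62 in control arrays, and fell by 2.40 (SE 0.18, adjusted p = 4.52e-07). MT1G fell by 2.03, MT1F by 1.92 and MT1E by 0.77 (the last with adjusted p up to 0.0728 without 1 array), and MT1H, undetected in the knockdown arrays of day 3, was at least 2.64-fold lower. MT2A went the other way, 1.11 higher (adjusted p = 0.00913), a call that was lost without replicate 3 of every group. These genes are close paralogs, and whether each probe reads 1 of them was not tested. HMOX1, which degrades haem, fell by 1.22, while ATP7B, a copper pump, rose by 0.97 and STEAP3, a ferrireductase, by 0.53 (adjusted p = 0.0236, up to 0.103 without 1 array). The transferrin receptor TFRC, the ferritin chain FTL and the iron regulator ACO1 differed by 0.17, 0.09 and -0.16 and did not pass.

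Promoters were available from RefSeq (GRCh38.p14) for 169 of the 202 members, as the 250 bases before the gene's start. They were searched on both strands for the metal response element core TGCNCNC, and for 3 motifs of factors that act in stem cells and early lineages, the octamer ATGCAAAT bound by OCT4, CATTGTT bound by SOX factors and TCACACCT bound by T-box factors. The metal response core occurred in 116 members (68.6%), and in 53.0% of 27305 promoters of all genes. The 27305 were not limited to genes detected on these arrays, so for each motif the shares come from unlike sets. A pair of metal carriers that moved in opposite directions is shown, with matches to that core, on either strand, in capitals. SLC40A1 lies on the minus strand with its window at chr2:189580787-189581036, and SLC30A1 on the minus strand with its window at chr1:211579162-211579411.
SLC40A1: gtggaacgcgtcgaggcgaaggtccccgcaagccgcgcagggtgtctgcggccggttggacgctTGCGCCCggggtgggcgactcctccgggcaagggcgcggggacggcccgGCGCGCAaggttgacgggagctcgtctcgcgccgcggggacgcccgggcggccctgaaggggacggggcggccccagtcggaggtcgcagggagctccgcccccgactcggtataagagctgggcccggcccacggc
SLC30A1: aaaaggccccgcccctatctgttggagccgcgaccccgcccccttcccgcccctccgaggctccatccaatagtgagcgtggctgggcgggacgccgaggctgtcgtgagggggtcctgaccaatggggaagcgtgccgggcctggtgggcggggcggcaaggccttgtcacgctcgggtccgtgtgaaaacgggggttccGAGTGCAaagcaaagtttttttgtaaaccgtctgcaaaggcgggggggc
The core is short and common, so a match describes the letters of the window and not a site.

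Amino acids and peptides were carried by 33 members, with 4 higher and 1 lower at day 2, and 7 higher and 7 lower at day 3. The class median at day 3 was 0.11. A pair of plasma membrane glutamate carriers rose. SLC1A1, the glutamate carrier EAAC1, had 7.37, 6.81 and 7.18 in knockdown arrays at day 3, against 5.08, 5.43 and 5.59 in control arrays. It was detected on every knockdown array and on no control array, and was at least 1.80-fold higher at day 2 (adjusted p = 2.84e-04) and at least 2.27-fold higher at day 3 (adjusted p = 1.93e-05). SLC1A3, the glutamate carrier GLAST, had 8.92, 8.63 and 8.93 in knockdown arrays at day 3, against 7.43, 7.57 and 7.74 in control arrays. It rose by 0.61 at day 2 (adjusted p = 0.0122) and by 1.25 at day 3 (SE 0.14, adjusted p = 1.41e-05), and the day 2 call was lost in 3 of 12 fits without 1 array (adjusted p up to 0.0513).

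SLC7A14, of the family of cationic amino acid carriers, had 9.55, 9.58 and 9.42 in knockdown arrays at day 2, against 8.27, 8.18 and 7.83 in control arrays. At day 3 the knockdown arrays were at 10.25, 10.25 and 10.03, against 8.04, 8.22 and 7.88 in control arrays. The groups lay apart on both days, and the gene rose by 1.42 (SE 0.15, adjusted p = 3.67e-05) and 2.13 (adjusted p = 2.18e-07). SLC66A2, placed in this class by its family, rose by 0.49 and 1.06 (adjusted p = 0.0343 and 4.43e-05). Its day 2 call was lost in 5 of 12 fits without 1 array (adjusted p up to 0.143).

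The lower amino acid carriers included those of aromatic and of cationic amino acids. The SLC7 family, with 12 members, was split at day 3, with 3 higher and 2 lower. Its member SLC7A6, named here after its values were seen, rose by 0.58 at day 3 (adjusted p = 0.00394), with 0.56 and the same call in its other probe. SLC16A10, which carries aromatic amino acids, had 9.14, 9.46 and 8.85 in knockdown arrays at day 2, against 10.11, 10.36 and 10.21 in control arrays. At day 3 it had 8.67, 8.66 and 8.14 in knockdown arrays, against 10.35, 10.25 and 10.11 in control arrays. All knockdown arrays lay below all control arrays, and the gene fell by 1.08 at day 2 (SE 0.18, adjusted p = 0.00185) and fell by 1.74 at day 3 (adjusted p = 9.75e-06). SLC7A3, a cationic amino acid carrier, had 9.66, 9.60 and 9.56 in knockdown arrays at day 3, against 10.53, 10.76 and 10.64 in control arrays, and fell by 1.03 (SE 0.14, adjusted p = 8.70e-05), with -0.92 and the same call in its other probe. SLC7A2, of the same group, fell by 0.77 (adjusted p = 5.82e-04), and SLC15A3, an endosomal carrier of histidine and peptides, fell by 0.91 (adjusted p = 6.64e-04). SLC1A5, which carries glutamine, had 9.47, 9.06 and 9.52 in knockdown arrays at day 3, against 10.01, 9.99 and 9.86 in control arrays, and fell by 0.60 (SE 0.14, adjusted p = 0.00641). SLC6A18, undetected on the knockdown arrays of day 3 and detected on 1 control array, was at least 1.05-fold lower, a call lost in 8 of 12 fits without 1 array (adjusted p up to 0.111).

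The carrier of leucine and other large neutral amino acids is a pair of SLC7A5, the light chain, and SLC3A2, the heavy chain. SLC7A5 had 14.03, 13.85 and 13.97 in knockdown arrays at day 3, against 13.73, 13.56 and 13.41 in control arrays. These groups did not overlap, but the difference of 0.38 missed the threshold (adjusted p = 0.0535, and 0.0293 with the replicate number as a block). SLC3A2 differed by 0.30 with overlapping groups (adjusted p = 0.311, and 0.0438 with the block), and its other probe was 0.68 higher (adjusted p = 0.00951). SLC7A11, the cystine carrier that also pairs with SLC3A2, and the neutral amino acid carriers SLC38A1 and SLC38A2 differed by 0.11, -0.22 and 0.24 and did not pass.

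**Figure D3:**
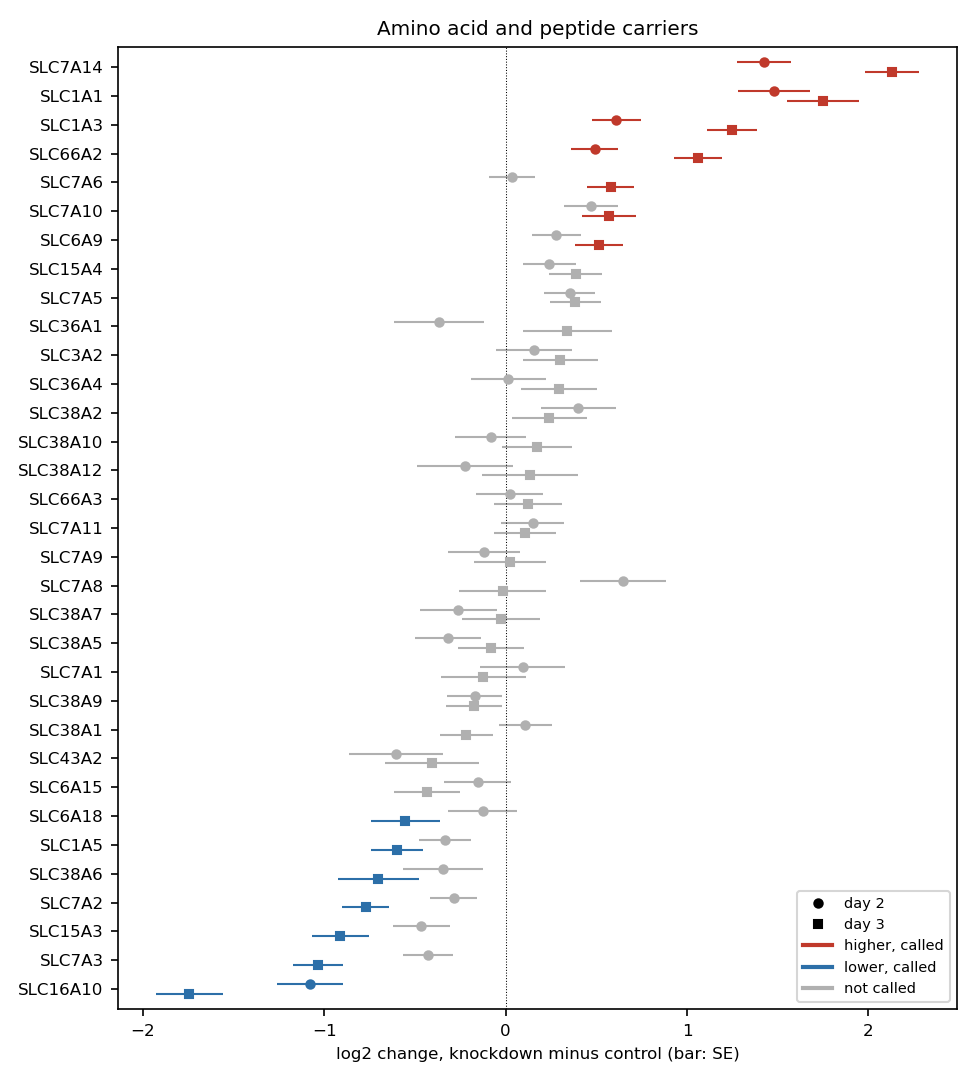
Log2 change (knockdown minus control, horizontal axis) with its SE at day 2 (circles) and day 3 (squares) for the 33 amino acid and peptide carriers, in order of their day 3 change. SLC7A14, SLC1A1, SLC1A3 and SLC66A2 were called higher on both days and SLC16A10 lower on both days.

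Genes of amino acid supply and of the response to its lack were counted from a list of 18, of which 16 were measured, with 1 higher and 0 lower at day 2, and 2 higher and 2 lower at day 3. VLDLR, a lipoprotein receptor, rose by 1.50 at day 3 (adjusted p = 1.00e-04) and DDIT4, an inhibitor of mTOR signalling, by 0.89 (adjusted p = 0.00447). The serine synthesis enzymes PSAT1 and PSPH fell by 0.41 and 0.46 (adjusted p = 0.0272 and 0.0423), with both calls lost without replicate 3 of every group. The response factor ATF4 and asparagine synthetase ASNS differed by 0.17 and 0.02 and did not pass.

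Sugars were carried by 15 members, with 3 higher and 1 lower on each day. SLC2A14, a glucose carrier of the GLUT family, had 9.34, 9.05 and 8.56 in knockdown arrays at day 3, against 7.84, 7.74 and 7.40 in control arrays. SLC2A12, another glucose carrier, had 8.37, 8.02 and 8.49 in knockdown arrays, against 6.69, 7.21 and 7.21 in control arrays. Neither gene's groups overlapped, and SLC2A14 rose by 1.33 (SE 0.24, adjusted p = 0.00112) and SLC2A12 by 1.26 (SE 0.24, adjusted p = 0.00129). At day 2 they were 1.08 and 0.91 higher (adjusted p = 0.0133 and 0.0281), with the SLC2A12 call lost in 4 of 12 fits without 1 array (adjusted p up to 0.132) and the SLC2A14 call in 1 (0.0605).

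SLC2A3, the high-affinity glucose carrier GLUT3, had 15.06, 15.01 and 14.89 in knockdown arrays at day 3, against 14.40, 14.30 and 14.57 in control arrays. It rose by 0.50 at day 2 (adjusted p = 0.0235) and by 0.56 at day 3 (SE 0.12, adjusted p = 0.00395), and the day 2 call was lost in 4 of 12 fits without 1 array (adjusted p up to 0.103). SLC2A3 and SLC2A14 are nearly identical in sequence, and whether their probes tell them apart was not tested. SLC2A1, the ubiquitous glucose carrier GLUT1, had 13.17, 12.90 and 13.09 in knockdown arrays at day 3, against 12.89, 12.79 and 12.77 in control arrays. Its difference of 0.24 missed the threshold (adjusted p = 0.238), as did 0.44 at day 2 (adjusted p = 0.0766, and 0.0263 without knockdown replicate 2 of that day). SLC37A1, a sugar phosphate exchanger of the endoplasmic reticulum, fell by 0.73 at day 2 and 0.97 at day 3 (adjusted p = 0.0115 and 4.80e-04), with adjusted p up to 0.0611 at day 2 without 1 array.

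Carboxylates were carried by 6 members, of which SLC16A9 alone was called, at day 3. It had 7.07, 7.14 and 6.87 in knockdown arrays, against 7.77, 7.66 and 8.11 in control arrays, and fell by 0.82 (SE 0.15, adjusted p = 8.96e-04). Among 10 measured genes of glucose and lactate handling, of 16 listed, 0 were called at day 2, where TXNIP differed by 0.57 (adjusted p = 0.0646, and 0.028 with scaling to the median), and 1 was higher and 3 were lower at day 3. TXNIP, which restrains glucose uptake, had 10.71, 10.77 and 10.39 in knockdown arrays, against 9.41, 9.38 and 8.77 in control arrays, and rose by 1.44 (SE 0.18, adjusted p = 3.86e-05). HK1, the first enzyme of glycolysis, fell by 0.69 (adjusted p = 0.0162, up to 0.0716 without 1 array). PDK3, a kinase of pyruvate dehydrogenase, fell by 0.56 and the lactate dehydrogenase LDHC by 0.54, with adjusted p up to 0.0915 and 0.0977 without 1 array. The lactate dehydrogenases LDHA and LDHB and basigin BSG, a partner of lactate carriers, did not pass.

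Inorganic ions were carried by 21 members, with 3 higher and 1 lower at day 2, and 5 higher and 2 lower at day 3. SLC9A9, a sodium-proton exchanger of endosomes, had 6.73, 6.64 and 7.23 in knockdown arrays at day 3, against 4.99, 5.11 and 5.41 in control arrays. Those 3 knockdown arrays were the only ones that detected it, and it was at least 1.91-fold higher (adjusted p = 1.34e-05). They also made SLC9A9 a member, so its p-value is a description and no further support. At day 2 both groups were undetected, so the call there is not read as a change. SLC9B2, a related exchanger, was detected on 2 of 3 knockdown arrays and no control array at day 3 and was higher there (adjusted p = 0.00179). SLC9D1, placed by its family, rose by 0.74 at day 3 (adjusted p = 0.00264).

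SLC12A2, the sodium, potassium and chloride cotransporter NKCC1, had 7.84, 7.91 and 8.07 in knockdown arrays at day 2, against 6.97, 7.17 and 6.87 in control arrays. At day 3 it had 8.07, 7.61 and 7.72 in knockdown arrays, against 7.32, 6.76 and 7.15 in control arrays. It rose by 0.94 (SE 0.17, adjusted p = 0.00321) and 0.73 (adjusted p = 0.00602), and its other probe, detected on 3 arrays, gave 0.83 and 0.50 without a call. SLC4A7, a sodium bicarbonate cotransporter, rose by 0.86 and 0.51 (adjusted p = 0.0025 and 0.0219), with the same calls in its other probe (0.97 and 0.71), and its day 3 call was lost in 3 of 12 fits without 1 array (adjusted p up to 0.0949). SLC4A11, of the bicarbonate family, had 7.96, 7.85 and 8.53 in knockdown arrays at day 3, against 8.98, 8.82 and 9.31 in control arrays, and fell by 0.92 (SE 0.19, adjusted p = 0.00288). SLC24A1, a sodium, calcium and potassium exchanger, fell by 0.66 (adjusted p = 0.0322, up to 0.112 without 1 array). The day 2 change of SLC4A11, -0.69, passed (adjusted p = 0.043, up to 0.153 without 1 array).

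Ion pumps and their regulators were counted from a list of 19, of which 12 were measured, with 3 higher and 0 lower at day 2, and 4 higher and 2 lower at day 3. ATP2B4, a calcium pump of the plasma membrane, had 9.74, 9.96 and 10.38 in knockdown arrays at day 3, against 8.22, 8.37 and 8.46 in control arrays, and rose by 1.68 (SE 0.17, adjusted p = 5.89e-06). FXYD6, a regulator of the sodium pump, was 1.05 higher (adjusted p = 0.00993, up to 0.0502 without 1 array). WNK1, a kinase upstream of SLC12A2, was 0.55 higher. NHERF1, a scaffold of ion exchangers, was 0.67 higher. The sodium pump subunit ATP1B2 and the regulator FXYD5 fell by 0.53 and 0.63 (adjusted p = 0.0183 and 0.0389, up to 0.0886 and 0.140 without 1 array).

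Mitochondrial carriers made up 31 members, with 1 higher and 1 lower at day 2, and 3 higher and 4 lower at day 3, and a day 3 median of -0.15. The paired aspartate-glutamate carriers of the malate-aspartate shuttle moved in opposite directions. SLC25A12 had 6.39, 5.97 and 6.08 in knockdown arrays at day 3, against 6.72, 7.02 and 6.97 in control arrays, and fell by 0.76 (SE 0.16, adjusted p = 0.00284). SLC25A13 had 10.32, 10.31 and 10.00 in knockdown arrays, against 9.66, 9.44 and 9.90 in control arrays, and rose by 0.54 (SE 0.15, adjusted p = 0.0159, up to 0.0784 without 1 array). Neither gene's groups overlapped.

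SLC25A37, mitoferrin, which brings iron into mitochondria, rose by 0.68 at day 2 and 0.64 at day 3 (adjusted p = 0.0459 and 0.0244). Its calls were lost in 8 and 2 of 12 fits without 1 array, with adjusted p up to 0.17 and 0.108. SLC25A42, which carries coenzyme A, had 8.39, 8.67 and 8.65 in knockdown arrays at day 3, against 9.17, 9.32 and 9.15 in control arrays, and fell by 0.65 (SE 0.15, adjusted p = 0.00553), and had fallen by 0.61 at day 2 (adjusted p = 0.0207, up to 0.0963 without 1 array). SLC25A21, a carrier of oxodicarboxylates, and SLC25A11, the oxoglutarate carrier, fell by 0.53 and 0.43 at day 3 (adjusted p = 0.0163 and 0.0354, up to 0.0703 and 0.153 without 1 array). SLC25A43 rose by 0.50 at day 3 (adjusted p = 0.0187, up to 0.0744 without 1 array). SLC25A5, an ADP and ATP carrier with many pseudogenes, had 13.59, 13.57 and 13.89 in knockdown arrays at day 3, against 13.79, 13.84 and 14.16 in control arrays. Those groups overlapped, and the difference was -0.25 (adjusted p = 0.232).

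The octamer occurred in the promoters of 2 of the 169 members (1.18%), SLC25A12 and SLC39A13, and in 2.03% of all 27305 promoters. The SOX motif occurred in 2 members, SLC22A23 and SLC33A1, and in 3.53% of all promoters, and the T-box motif in 0 members and in 0.982% of all promoters. The promoters of the called members are shown because each holds 1 of these motifs, in capitals and on the reverse strand. SLC25A12 lies on the minus strand with its window at chr2:171894245-171894494 and shows the octamer. SLC22A23 lies on the minus strand with its window at chr6:3324151-3324400 and shows the SOX motif.
SLC25A12: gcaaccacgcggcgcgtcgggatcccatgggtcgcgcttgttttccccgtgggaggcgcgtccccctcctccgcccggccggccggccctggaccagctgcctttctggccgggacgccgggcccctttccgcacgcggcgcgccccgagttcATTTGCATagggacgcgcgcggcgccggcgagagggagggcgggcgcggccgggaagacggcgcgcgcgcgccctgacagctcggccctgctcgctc
SLC22A23: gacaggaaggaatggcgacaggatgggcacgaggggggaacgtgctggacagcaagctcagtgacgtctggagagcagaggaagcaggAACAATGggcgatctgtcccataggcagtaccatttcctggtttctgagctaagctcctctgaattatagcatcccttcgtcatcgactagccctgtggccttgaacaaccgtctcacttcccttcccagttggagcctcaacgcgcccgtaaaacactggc
Motif matches are descriptions of these windows, which leave out distant enhancers.

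Nucleosides and nucleotide sugars were carried by 25 members, all detected on 12 arrays, with 1 higher and 1 lower at day 2, and 4 higher and 2 lower at day 3. SLC35A3, which brings UDP-N-acetylglucosamine into the Golgi, had 9.11, 9.13 and 8.77 in knockdown arrays at day 3, against 8.13, 8.02 and 7.77 in control arrays. Its groups lay apart at day 3 and overlapped at day 2, and it rose by 1.03 at day 3 (SE 0.17, adjusted p = 4.97e-04). SLC35F5 had 7.94, 7.90 and 7.83 in knockdown arrays at day 3, against 7.18, 7.19 and 7.17 in control arrays, and rose by 0.63 at day 2 and 0.71 at day 3 (adjusted p = 0.00452 and 5.92e-04). SLC35A5 had 9.62, 9.42 and 9.38 in knockdown arrays at day 3, against 10.31, 10.28 and 10.44 in control arrays, and fell by 0.87 (SE 0.15, adjusted p = 6.66e-04). It had fallen by 0.64 at day 2 (adjusted p = 0.0159), a call lost in 4 of 12 fits without 1 array (adjusted p up to 0.0713). The sulphate donor carrier SLC35B2 and the family member SLC35F2 rose by 0.57 and 0.67 at day 3 (adjusted p = 0.0278 and 0.00574). SLC29A3, a nucleoside carrier of lysosomes, fell by 0.65 (adjusted p = 0.0108, up to 0.0559 without 1 array). The SLC35B2 call was lost in 3 of 12 fits without 1 array (adjusted p up to 0.105).

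Organic ions and bile acids were carried by 10 members, with 1 higher and 2 lower at day 2, and 2 higher and 3 lower at day 3. SLC51A, a subunit of the exporter of bile acids and steroids, had 5.44, 5.65 and 5.03 in knockdown arrays at day 3, against 7.03, 6.62 and 7.02 in control arrays. It was undetected on those knockdown arrays and detected on all control arrays, and was at least 2.10-fold lower (adjusted p = 3.75e-05). At day 2 it fell by 0.84 (adjusted p = 0.0109, up to 0.0510 without 1 array). SLC22A23, an orphan of the organic ion family, had 8.04, 7.66 and 7.94 in knockdown arrays at day 2, against 9.20, 8.99 and 9.21 in control arrays. At day 3 it had 8.20, 8.11 and 8.50 in knockdown arrays, against 9.11, 9.09 and 9.79 in control arrays. The groups lay apart on both days, with falls by 1.25 (SE 0.19, adjusted p = 9.28e-04) and 1.06 (adjusted p = 0.00101).

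SLC47A1, the exporter of organic cations MATE1, fell by 0.73 at day 3 (adjusted p = 0.0116), and SLC22A17 rose by 0.51 (adjusted p = 0.0354, up to 0.144 without 1 array). SLC10A4, of the bile acid family, was undetected on control arrays and detected on 2 of 3 knockdown arrays of each day. It was at least 1.08-fold higher at day 2 (adjusted p = 0.0263, up to 0.117 without 1 array) and also higher at day 3 (adjusted p = 0.00398), where the bound gives no fold.

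Lipids were carried by 5 members, with 0 higher and 2 lower at day 3. SLC27A2, which activates and takes up very long chain fatty acids, had 5.56, 5.75 and 5.85 in knockdown arrays at day 3, against 6.72, 6.67 and 7.02 in control arrays. It was detected on 1 knockdown array and 3 control arrays on each day, and fell by 0.88 at day 2 (adjusted p = 0.00308) and 1.08 at day 3 (SE 0.16, adjusted p = 1.95e-04). SLC27A5, a related enzyme of bile acid and fatty acid activation, fell by 0.69 at day 3 (adjusted p = 0.0219, up to 0.101 without 1 array).

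Vitamins, cofactors and haem were carried by 11 members, with 1 higher and 1 lower at day 3 and none called at day 2. SLC46A3, a lysosomal carrier, had 6.67, 6.46 and 6.63 in knockdown arrays at day 2, against 5.91, 5.98 and 6.45 in control arrays. The lowest detected values on those control arrays were 5.97, 5.86 and 5.86, so SLC46A3 lay near background there. At day 3 it had 8.26, 8.16 and 8.32 in knockdown arrays, against 6.28, 6.31 and 6.59 in control arrays. The groups did not overlap on either day, and the gene rose at day 3 by 1.85 (SE 0.16, adjusted p = 1.49e-06), while 0.47 at day 2 missed the threshold (adjusted p = 0.0908, and 0.0236 without control replicate 3 of that day). SLC5A6, the sodium-dependent multivitamin carrier, had 10.25, 10.36 and 10.41 in knockdown arrays at day 3, against 11.01, 10.79 and 10.85 in control arrays, and fell by 0.54 (SE 0.14, adjusted p = 0.00864).

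Among the 9 carriers of neurotransmitters, osmolytes, choline and creatine, SLC44A2, a choline carrier-like protein, rose by 0.61 at day 3 (adjusted p = 0.016, up to 0.0634 without 1 array). SLC18B1, a vesicular polyamine carrier, fell by 0.66 (adjusted p = 0.0373, up to 0.138 without 1 array). Of 8 members of other or orphan families, SLC71A1 rose by 0.45 at day 3 (adjusted p = 0.0213, up to 0.0774 without 1 array). A further 6 members carry an SLC symbol and are not carriers, and among them SLC2A4RG, a regulator of the SLC2A4 gene, rose by 0.51 (adjusted p = 0.0244, up to 0.103 without 1 array).

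**Figure D4:**
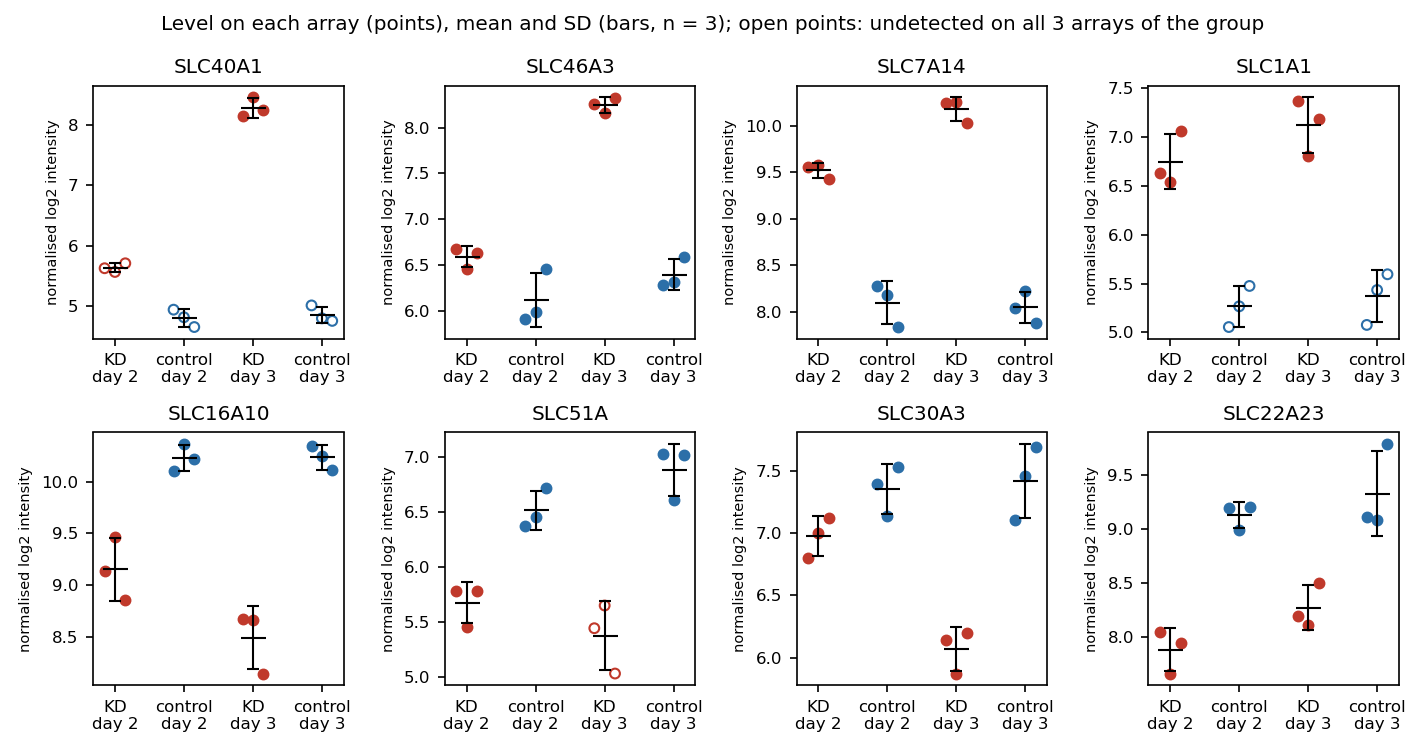
Normalised log2 intensity (vertical axis, own scale per gene) on each array for 8 members with large changes, with the mean and SD of each group of 3 arrays, knockdown (KD, red) left of control (blue) at day 2 and day 3. Open points mark groups in which no array detected the probe, such as all SLC40A1 groups except knockdown at day 3.

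The knockdown effects of the 2 days were set against each other in the same fit. Of the 202 members, 2 were called (0.99%, background 2.32%), SLC46A3 and SLC40A1. For SLC46A3 the effect at day 3 exceeded that at day 2 by 1.38 (SE 0.22, adjusted p = 0.00457), a call that held in all 21 alternatives run for it. SLC46A3 too was detected on fewer than 12 arrays, with day 2 control values near background, which limits how well this size is known. SLC40A1 was detected in knockdown arrays of day 3 alone, and the other 3 groups give no measured baseline, so its fitted difference is no measure of size. With the replicate number as a block, 11 members were called in place of 2. The share over all genes with the block is not given, so this count is no result about carriers. For the other members called at day 3 alone, a difference between the days was not shown in the fit without the block.

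Control cells were compared between day 3 and day 2 as a measure of change without OCT4 knockdown. At an adjusted p under 0.05 limma called 0 members (background 0.247%), and 19 (9.41%) had an unadjusted p under 0.05, where the background was 10.9%. With the replicate number as a block 4 members were called, 2 higher and 2 lower, and the share over all genes is not given for that fit. The changes over members ranged between -0.74 and 0.69 on the log2 scale.

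Detected probes other than the one used were available for 36 members, 43 in all. Among the 8 such probes of members called at day 3, 4 had the same call and 0 the opposite one. At day 3, 3 members were called in another probe only, SLC3A2, SLC26A6 (-0.54) and SLC39A3 (-0.50), and the last pair is named here after its values were seen.

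Transporters outside the SLC symbols were counted from a list of 26, of which 13 were measured, with 1 higher and 0 lower at day 2, and 1 higher and 1 lower at day 3. SLCO2A1, the prostaglandin carrier, had 9.69, 9.52 and 9.69 in knockdown arrays at day 3, against 5.82, 5.96 and 5.84 in control arrays. These groups lay far apart, and the gene rose by 1.56 at day 2 and by 3.76 at day 3 (SE 0.13, adjusted p = 6.08e-10), with 1 of the 3 control arrays of day 3 detecting it. SLCO4A1, an organic anion carrier, fell by 0.85 (adjusted p = 7.04e-04). The 8 measured ABC transporters and the others of the list did not pass at day 3.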

How the data were processed

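Intensities were deposited for 48803 probes on each of 12 Illumina arrays, and the file headers name no normalisation. Detection p-values for each probe and array are deposited beside them. A second deposited table holds log2 values that the authors centred: set against the log2 intensities they differed by 1 constant per array and 1 baseline per probe (remainder SD 1.71e-07), with column medians between -0.0146 and 0.0136, and the samples behind the baseline are unknown. Scanner and software: not given in the sources used here. Groups come from the sample titles.

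The neqc function (limma 3.58.1, R 4.3.3) corrected the background from the detection p-values with an offset of 16, followed by quantile normalisation and log2. The detection filter (p under 0.01, 3 or more of 12 arrays) kept 15407 probes. In GEO's annotation 28098 probes have 1 gene, 13 have several and 20692 have none, and 28059 of the first matched RefSeq's table by Entrez identifier with 0 symbols changed. The 10506 genes were fitted together in limma by group means, without a block (8 residual degrees of freedom), with two-sided tests and Benjamini-Hochberg adjustment over all genes at 0.05. The script was tested on simulated data.

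A fold is a lower bound where all 3 arrays of a group lacked detection: the brighter group's mean is set against the dimmer group's mean after raising each array's value to that of its dimmest detected probe. Where both groups lack detection no fold is given.

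The members, classes and gene lists were chosen with earlier results of these data known. Named are, per class, up to 4 called members with the largest day 3 change in each direction, called members undetected in a group, and a set of chosen carriers whatever their values. Day 3 and control arrays of the same replicate number deviated together from their group means (correlations of 0.482, 0.388 and 0.738 at day 3, and 0.241, 0.214 and 0.667 between the control arrays). The numbers were taken to pair arrays only in the alternative fit with a replicate block. No label says what they mark, and the main fit, which gave the calls above, pairs nothing. Alternatives were other background corrections, scalings, filters and probes, the authors' values, a replicate block and left-out arrays.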

Additional observations from a re-analysis of the deposited data

Results flagged for a closer look

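In 2 carriers the test of the difference between the days' knockdown effects passed. For SLC46A3 the effect at day 3 exceeded that at day 2 by 1.38 on the log2 scale (adjusted p = 0.00457 in limma), where knockdown lay above control on all arrays of both days. Its day 2 control values lay near background, which limits how well this size is known. For SLC40A1 the fitted value was 2.59, but only the knockdown arrays of day 3 detected the probe and made it a member, so the value has no measured baseline and is given as a description. No group had enough arrays for a check of single outlying samples.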

How the results depend on the processing

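In 22 alternatives no called result changed direction. The call was kept under every one of them by 8 of the 22 members called at day 2 and by 36 of the 60 called at day 3. With the replicate block the counts were 41 at day 2 (21 higher, 20 lower, all 22 main calls among them), 90 at day 3 with all 60 among them, 11 for the difference between days and 4 in control cells. The share over all tested genes is not given for any alternative, so counts of members called there are no result about carriers. At day 2 the knockdown and control arrays of the same number correlated at 0.0225, 0.399 and 0.700 for replicates 1, 2 and 3. The replicate 1 arrays of day 2 thus share a number and not a shown pairing. With the block SLC2A1 had an adjusted p of 0.0223 at day 2, and TXNIP 0.0073. Leaving out 1 array gave 13 to 24 calls at day 2, 45 to 64 at day 3, 2 to 3 for the difference between days and 0 to 0 in control cells, and leaving out replicate 3 of every group, chosen after seeing these arrays stand apart, gave 15, 54, 2 and 0. With the authors' log2 values 62.7% of day 3 calls were higher, in place of 51.7%, and the cause was not tested. Signals near background limit the 31 members detected on fewer than 12 arrays, for which folds are bounds or depend on the offset.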
